A study of Ictalurus furcatus with 16 samples.

Results

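The T and B lymphocyte genes examined here are 9 symbols chosen by name (rag2, lat, lck, cd8a, cd247, cd79a, btk, foxp3b and zap70). Counts were summed over the transcripts of each symbol. Of the 9 symbols, 8 were matched among the 26356 gene symbols of the count tables, and zap70 was not analysed here. They were measured by RNA-seq of total RNA from whole testis of the blue catfish, Ictalurus furcatus, a large river fish of North America. The 16 libraries comprise 4 biological replicates at each of ages 2, 4, 7 and 9, and age 2 is the control of the study. The labels give no unit of age, strain, treatment or genotype. The sample titles do not say whether a library is a single fish or a pool. Each library held between 5136717 and 8081160 fragments assigned to a transcript.

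Lymphocytes carry antigen receptors that are assembled from gene segments by the RAG recombinase. In T cells, engagement of the receptor lets the kinase Lck phosphorylate signalling chains such as CD247, which leads through the kinase ZAP70 to the membrane adaptor LAT. B cells use CD79A and CD79B as the signalling chains of their receptor and the kinase BTK further downstream. These roles were established mainly in mammals. The mammalian testis is known for restrained immune responses, which in part protect the germ cells.

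At age 9 the T cell signalling genes lat and lck and the recombinase subunit gene rag2 were higher than at age 2, and a gene of the regulatory T cell factor family was lower. The adaptor gene lat rose 2.79-fold, the kinase gene lck 2.71-fold and rag2 4.12-fold, whereas foxp3b fell from 49 counts over 4 libraries to 4. Of the 8 genes, 3 were thus higher and 1 lower by edgeR's quasi-likelihood test (Benjamini-Hochberg adjusted p under 0.05), where 18.4% of all 15979 genes tested passed in either direction. The co-receptor gene cd8a, the receptor chain gene cd247 and the B cell genes cd79a and btk did not pass in this comparison. In 3 of the 8 genes (rag2, lck and foxp3b) the libraries of ages 9 and 2 did not overlap, where this held for 15.1% of all genes. For rag2 this was by a very small margin, with 5.29 CPM in age 2 replicate 1 and 5.30 CPM in age 9 replicate 1. Against age 2, 1 member (rag2) passed at age 4, where 18.6% of all genes passed. No member was free of overlap with age 2 at age 4 or age 7, where 9.41% and 15.1% of all genes were. At age 7 the edgeR test called 0 members, where 27.3% of all genes passed. At an unadjusted p under 0.05 there were 2 members, and 6714 of all 15979 genes. At age 7 DESeq2 called 2 members and limma voom 4. Limma voom also called far more of all genes than the 4368 of edgeR (counts in the last section). How many of all genes DESeq2 called at age 7 is not given here, so its 2 calls stand without a share. The median log2 fold change of the 8 genes at age 9 was 0.03, against -0.03 over all genes tested.

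**Figure D1:**
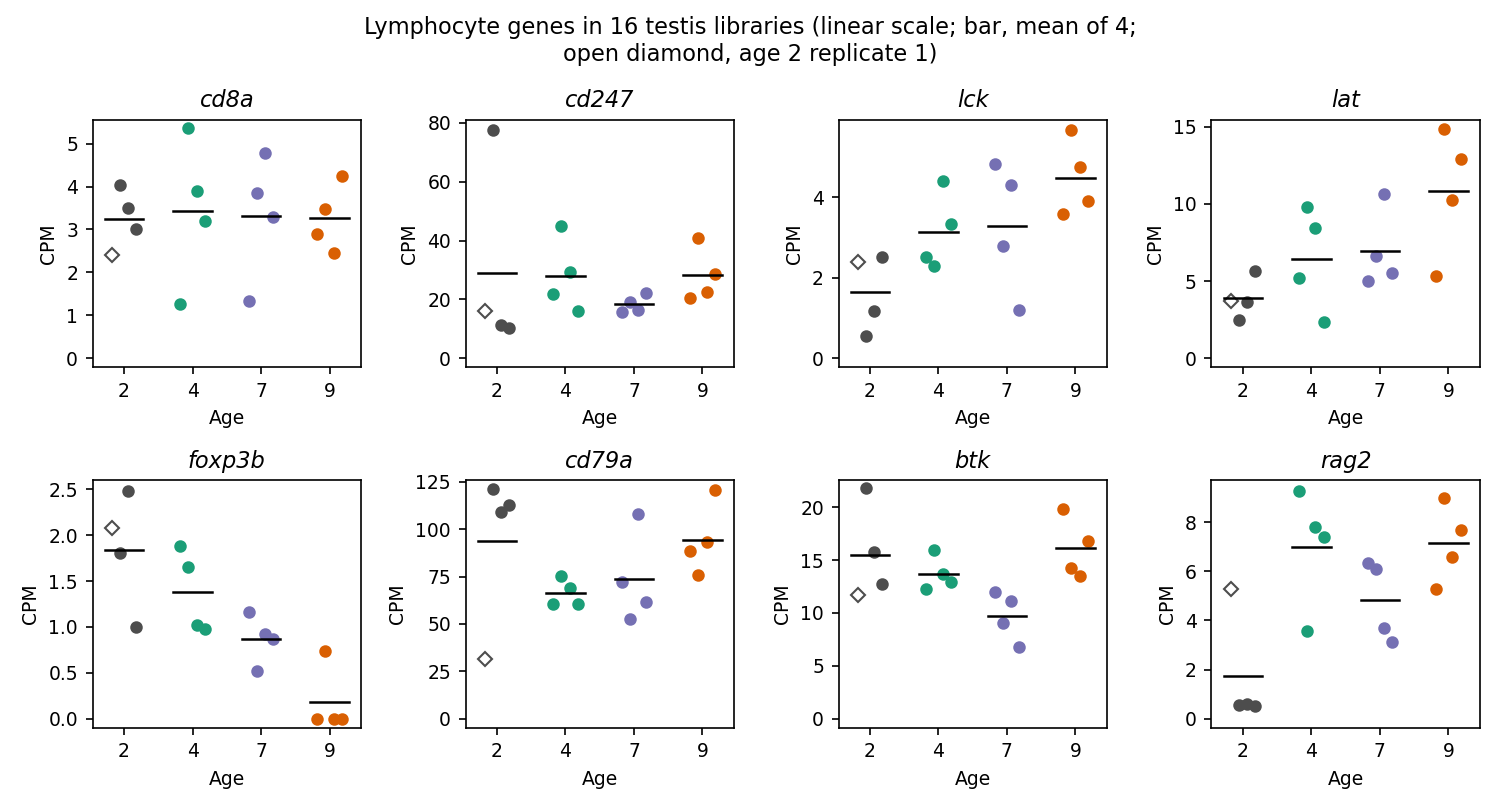
Normalised level (CPM, linear axis from 0) of the 8 lymphocyte genes in each library by age, with a bar for the mean of 4 libraries and an open diamond for age 2 replicate 1. The 4 age 9 libraries lie above the 4 age 2 libraries for lck and rag2 and below them for foxp3b. For rag2 age 9 replicate 1 (5.30 CPM) all but ties with age 2 replicate 1 (5.29 CPM).

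Levels are given as CPM, counts relative to the library's assigned fragments in the 15979 genes tested, scaled by the TMM method and not by gene length. For rag2, lat, lck, cd8a and foxp3b single libraries held between 0 and 81 counts, so that counting error adds to their spread, by a share that was not measured. Within age 2, replicate 1 stood apart from the other 3 libraries. It had 101.5 CPM of gsdf, which encodes a secreted factor made by Sertoli cells of fish, against 1934 to 6708 CPM in the other 3 age 2 libraries. The mean level of its sperm tail genes was also as high as in the older testes. Results that rest on this library are given with and without it. In whole testis, fewer lymphocytes and less RNA per lymphocyte cannot be told apart.

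The label of the set was checked against other lymphocyte markers. The T cell genes cd4-1, cd8b and tcf7 held 7, 19 and 2 counts over all 16 libraries, and the B cell genes cd79b and blnk held 2 and 0. Each of these 5 has several annotated transcripts. The costimulatory receptor gene cd28 and the CD4 family gene cd4-2.2, with 1 transcript each, held 52 and 457 counts. Chosen after its values were seen, cd4-2.2 differed by 1.27 ± 0.55 on the log2 scale at age 9 against age 2 and did not pass (edgeR, adjusted p = 0.11). Counts were made per transcript, and 22.8% to 29.4% of fragments were listed as ambiguous on a summary line that was left out here. Whether these hold all fragments shared by several transcripts of a gene is not stated. Low values of genes with several transcripts therefore do not show that the gene was silent. The sex determination gene dmrt1, a standard testis gene with 4 transcripts, was likewise listed at 0 counts in every library. Over the wider lymphocyte lists, 58 of 62 genes with 1 transcript passed the filter on low counts, but only 13 of 59 with several. All 8 members passed that filter, and 7 of them have 1 transcript, the exception being lck with 2.

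The adaptor gene lat had its highest mean at age 9. LAT is the membrane scaffold that ZAP70 phosphorylates in mammals. Its level was 3.69, 2.50, 3.64 and 5.68 CPM at age 2 and 5.30, 14.8, 10.3 and 12.9 CPM at age 9. Age 9 replicate 1 lay just under the highest age 2 library, and the other 3 age 9 libraries lay above all of age 2. The intermediate ages held 2.37 to 9.82 CPM (age 4) and 5.0 to 10.6 CPM (age 7) and overlapped both. The log2 fold change at age 9 was 1.48 ± 0.44 (edgeR, adjusted p = 0.032). The call was lost without age 2 replicate 2 (adjusted p = 0.0997) or replicate 3 (0.083) and without age 9 replicate 2 (0.088), replicate 3 (0.058) or replicate 4 (0.062).

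The kinase gene lck was called by the narrowest margin. LCK is the Src family kinase bound to the CD4 and CD8 co-receptors. Its level was 2.40, 0.556, 1.17 and 2.51 CPM at age 2 and 3.59, 5.68, 4.75 and 3.92 CPM at age 9, with no overlap between these ages. Age 4 held 2.30 to 4.40 CPM and age 7 held 1.21 to 4.84 CPM. The log2 fold change at age 9 was 1.44 ± 0.48 (edgeR, adjusted p = 0.048). It no longer passed in 13 of the 16 fits that left out a library, with adjusted p between 0.0505 (without age 7 replicate 3) and 0.133 (without age 2 replicate 2). Among these fits it passed without age 2 replicate 1 (0.014, where 7028 of all genes passed), age 4 replicate 3 (0.0499) or age 7 replicate 4 (0.036). The call was also lost with upper quartile normalization (0.052), without a filter on low counts (0.064) and in a fit of the 2 ages alone (0.093).

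The other T cell receptor genes showed no such order. CD8A is a chain of the co-receptor of cytotoxic T cells. The gene cd8a held 2.40 to 4.03 CPM at age 2 and 2.45 to 4.24 CPM at age 9, and its mean was 3.24 ± 0.69, 3.43 ± 1.7, 3.31 ± 1.45 and 3.27 ± 0.77 CPM (SD, n = 4 each) at ages 2, 4, 7 and 9. Its log2 fold change at age 9 was 0.01 ± 0.43 (SE). The receptor chain gene cd247 held 16.0, 77.7, 11.4 and 10.2 CPM at age 2, where replicate 2 was far above the other 3. At age 9 it held 20.5, 40.9, 22.4 and 28.7 CPM. With all libraries the log2 fold change was -0.04 ± 0.53. Without age 2 replicate 2 it was 1.16 ± 0.35 at age 9 (edgeR, adjusted p = 0.056), 1.16 ± 0.35 at age 4 (adjusted p = 0.063) and 0.56 ± 0.35 at age 7, and none of the 3 passed. The annotation places a gene without a symbol, LOC128601714, over cd247, and it held 1.67 to 4.79 CPM over all libraries.

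**Figure D2:**
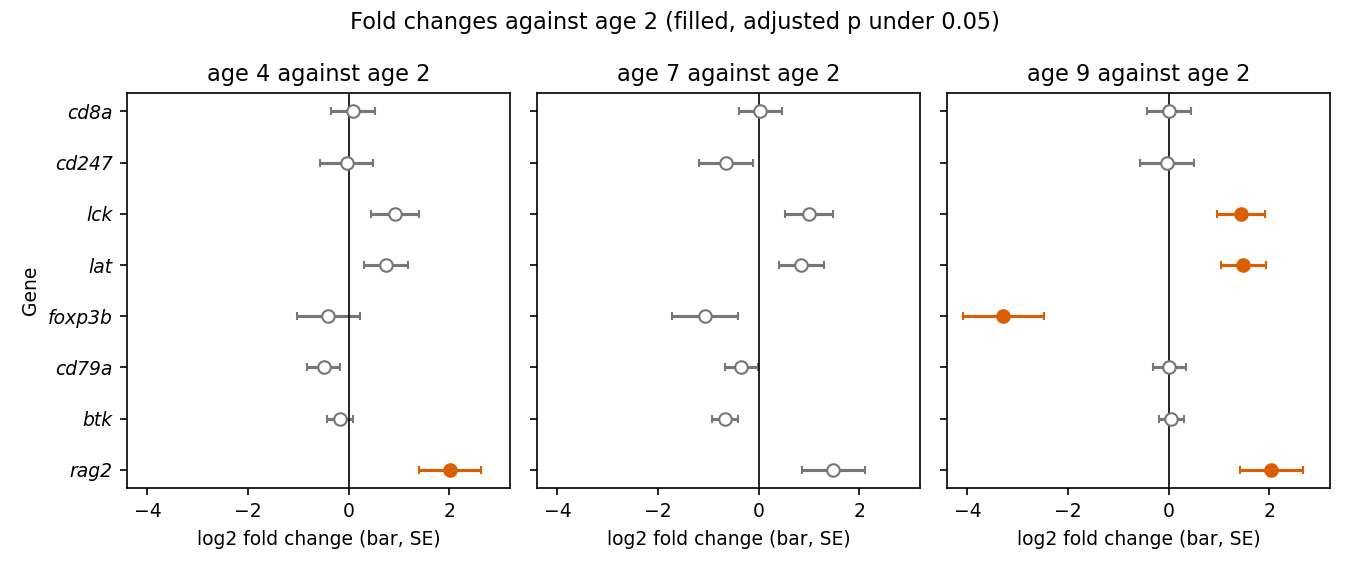
Log2 fold change with its standard error (derived from the F statistic) for each gene at ages 4, 7 and 9 against age 2. All come from 1 model of all 16 libraries, filled where the adjusted p is under 0.05. At age 9 lck, lat and rag2 lie to the right of 0 and foxp3b to the left, and cd8a, cd247, cd79a and btk lie within 0.1 of 0. The 3 panels share the age 2 libraries.

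The gene foxp3b ran against the signalling genes. In mammals FOXP3 is the defining transcription factor of regulatory T cells, and foxp3b is a fish gene of that family. It held 13, 13, 17 and 6 counts in the age 2 libraries (2.08, 1.81, 2.48 and 1.0 CPM), 12, 13, 6 and 7 at age 4, 7, 3, 6 and 5 at age 7, and 0, 4, 0 and 0 at age 9. No age 9 library reached the lowest age 2 or age 4 library, although age 9 replicate 2, at 0.733 CPM, lay within the age 7 range of 0.524 to 1.17 CPM. Pooled over 4 libraries, the normalised level at age 2 was 11.2 times that at age 9 (95% counting interval 4.09 to 42.6, which covers counting error only). The fitted log2 fold change was -3.29 ± 0.80 (edgeR, adjusted p = 0.014), and it passed under each of the 22 alternatives in which the gene was tested. However, foxp3b reached the filter's minimum count of 10 only in libraries of ages 2 and 4, where it was high. In the fit of ages 2 and 9 alone it was not tested. In the test for any difference among the 4 ages foxp3b was the only member called (adjusted p = 0.039), where 19.3% of all genes passed. That call was lost in 13 of the 16 fits that left out a library, and it held without age 2 replicate 1, age 4 replicate 4 or age 9 replicate 2. The size of the fitted change is poorly fixed, because all 4 age 9 counts came from replicate 2 and 3 libraries were at 0. It ran from -6.56 without age 9 replicate 2 to -2.83 without age 9 replicate 3. The related gene foxp3a, with 5 transcripts, held 6 counts in all.

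The B cell genes did not pass the test at age 9. CD79A passes the signal of the B cell receptor inward, and BTK is the kinase whose loss causes human agammaglobulinaemia. BTK is also used by myeloid cells. The gene cd79a held 31.3, 121.5, 109.1 and 112.9 CPM at age 2, with replicate 1 below every other library of the series. It held 60.7 to 75.5 CPM at age 4, 52.8 to 108.2 CPM at age 7 and 75.9 to 120.8 CPM at age 9. Its log2 fold changes against age 2 were -0.49 ± 0.33, -0.34 ± 0.33 and 0.01 ± 0.33 at ages 4, 7 and 9. Without age 2 replicate 1 they were -0.71 ± 0.21 (edgeR, adjusted p = 0.013), -0.55 ± 0.21 (adjusted p = 0.044) and -0.22 ± 0.22 (adjusted p = 0.423). In that fit cd79a was called lower at ages 4 and 7, where 7581 and 7941 of all genes were called in either direction. All 4 age 9 libraries were above all 4 of age 4 for cd79a, but the log2 fold change of 0.51 ± 0.33 did not pass (adjusted p = 0.654).

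The gene btk was lowest at age 7. Its level was 11.7, 21.8, 15.7 and 12.7 CPM at age 2, 12.3 to 15.9 CPM at age 4, 12, 9.08, 11.1 and 6.74 CPM at age 7, and 19.8, 14.3, 13.5 and 16.8 CPM at age 9. The age 7 libraries lay below all of age 4 and all of age 9, and only age 2 replicate 1 reached into their range. The log2 fold change at age 7 against age 2 was -0.67 ± 0.26 and did not pass (edgeR, adjusted p = 0.062). It passed with upper quartile normalization (adjusted p = 0.042), with DESeq2 (0.044) and with limma voom (0.0086). It also passed without age 2 replicate 1, at -0.70 ± 0.25 (edgeR, adjusted p = 0.033), in a fit where 7941 of all genes passed. Against age 7 the change at age 9 was 0.72 ± 0.26 (adjusted p = 0.578).

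The recombinase gene rag2 was low in 3 of the 16 libraries, all of age 2. RAG2 cuts DNA only together with RAG1. The level of rag2 was 0.556, 0.583 and 0.502 CPM in age 2 replicates 2 to 4 (3 or 4 counts each), but 5.29 CPM (33 counts) in age 2 replicate 1. The 12 older libraries held between 3.11 and 9.28 CPM. Those of age 9 held 5.30 to 8.98 CPM, and the lowest, replicate 1 (31 counts), all but tied with age 2 replicate 1. Each older library reached the filter's minimum count of 10 for rag2 (18 counts or more), but at age 2 only replicate 1 did. The gene thus passed the filter through the libraries where it was high. The log2 fold change was 2.01 ± 0.62 at age 4 (edgeR, adjusted p = 0.038), 1.48 ± 0.63 at age 7 (adjusted p = 0.086) and 2.04 ± 0.63 at age 9 (adjusted p = 0.035). Without age 2 replicate 1 these were 3.70 ± 0.46, 3.18 ± 0.46 and 3.70 ± 0.46, all past the threshold, where 7581, 7941 and 7028 of all genes passed.

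Other single libraries also decided the calls of rag2. Without age 2 replicate 2, 3 or 4 it passed at neither age 4 nor age 9, with adjusted p between 0.100 and 0.115. At age 4 the call was also lost without age 4 replicate 1 (0.092), replicate 3 (0.089) or replicate 4 (0.052) or age 7 replicate 2 (0.0504). At age 9 it was lost without age 9 replicate 1, 2, 3 or 4 (0.053 to 0.081).

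Values of the genome neighbourhood and of sperm cells stand beside that of rag2. Its partner rag1, the next gene on the chromosome in the RefSeq annotation (assembly Billie_1.0) and with 1 transcript, held at most 7 counts in any library and 26 in all. The annotation also places the gene iftap, named for intraflagellar transport, over rag2, and whether counting used strand is not stated. The iftap level was 7.23 to 10.3 CPM in age 2 replicates 1 to 3 and 3.85 CPM in replicate 4, and 6.56 to 12.3 CPM in the older libraries, without the gap seen for rag2. The mean log2 CPM of 15 sperm tail genes was 5.52 in age 2 replicate 1. It was 2.90 to 3.44 in age 2 replicates 2 to 4 and 4.44 to 6.29 at the later ages. The same 3 libraries were thus low for rag2 and for this mean. Not all 15 genes followed it. In age 2 replicates 2 to 4 dnah9 held 916, 852 and 366 counts, against 135 to 352 in the older libraries. For dnah3 these were 2396, 2373 and 1778, against 520 to 1527. At age 9 against age 2, edgeR called 2 of the 15 higher and 2 lower (6.82% and 11.5% of all genes). The log2 fold change was above 0 in 12 of the 15, as in 7743 of all 15979 genes tested. The list's median was 1.26, against -0.03 over all genes. The part of sperm cells or of iftap in the rag2 counts was not tested.

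**Figure D3:**
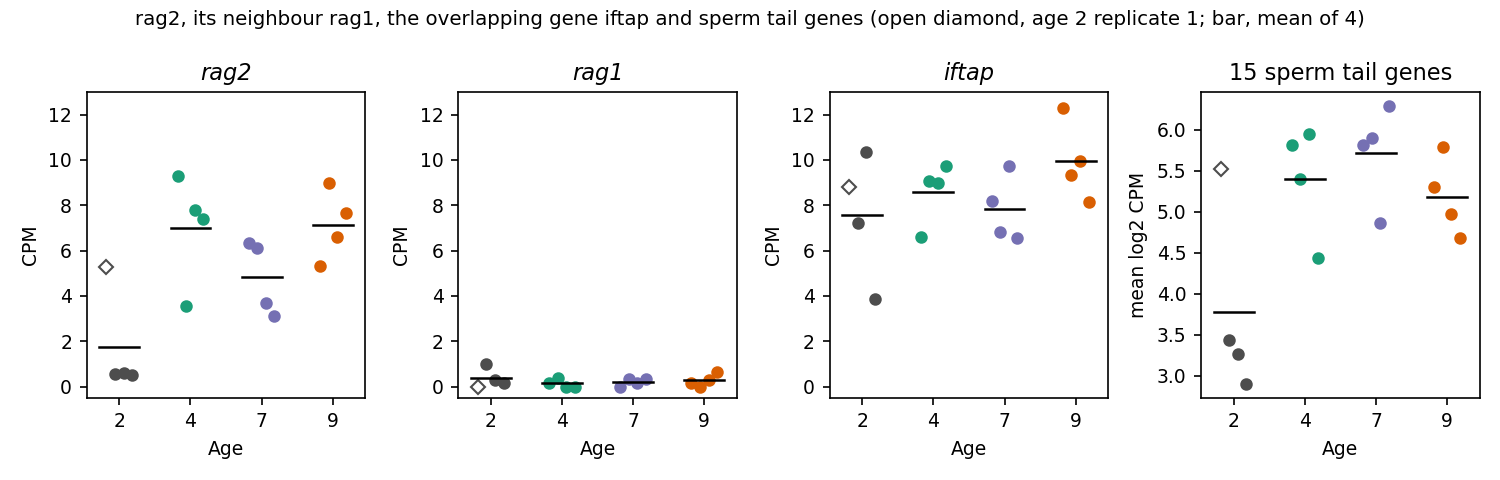
Level of rag2, of its neighbour rag1 and of the overlapping gene iftap (CPM, 1 shared linear scale), and the mean log2 CPM of 15 sperm tail genes, in each library by age; bars are means of 4 and the open diamond is age 2 replicate 1. In the rag2 and sperm tail panels age 2 replicate 1 lies with the older testes, and rag1 stays under 1 CPM throughout.

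Members were also compared with each other, by ratios of counts to which no scaling factor was applied. For each of the 28 pairs the log2 ratio of counts (with 0.5 added) was compared between ages 9 and 2 by a two-sided exact permutation test over 70 splits, a comparison added after the data were seen. The smallest p that 4 against 4 libraries allow is 0.0286, and 6 pairs reached it. All 6 set foxp3b against another member (btk, cd247, cd8a, lat, lck and rag2), and in each the 4 age 9 libraries lay on the side of lower foxp3b. These pairs share foxp3b, which was already called in the same libraries and held only 4 counts at age 9, so that they are not separate results. The foxp3b counts were 0 in age 9 replicates 1, 3 and 4, where the ratio depends on the 0.5 added and on library depth. The ratio of lat to cd8a was higher at age 9 by 1.41 on the log2 scale and that of lck to cd8a by 1.58, with overlapping libraries (exact permutation p = 0.057 each). After adjustment over the 28 pairs the smallest p was 0.133, so that 0 pairs passed the correction and 6 had an unadjusted exact p under 0.05.

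In the wider T cell signalling list 7 of 14 genes tested were higher at age 9, and none was called lower. Of the 26 genes matched these 14 passed the filter, and the comparison was with age 2 by edgeR, in which 6.82% of all genes were higher. The log2 fold change was above 0 in 11 of the 14. The list's median log2 fold change was 0.96, against -0.03 over all genes tested. Its summed level overlapped between the ages (199 to 341 CPM at age 2 and 285 to 418 CPM at age 9). The 7 include lat and lck. Without the members, 5 of 12 were higher and the median was 0.80. The largest of these changes was in skap1, an adaptor of T cell adhesion (1.91 ± 0.44, SE; adjusted p = 0.011), from 0.962 to 2.68 CPM at age 2 to 4.45 to 7.82 CPM at age 9, without overlap. The adaptor gene sh2d1ab, a relative of mammalian SAP, rose by 1.5 ± 0.30 (adjusted p = 0.0059), from 6.52 to 7.53 CPM to 13.3 to 23.7 CPM. The others, named after their values were seen, were the phosphatase gene ptpn6 (1.01 ± 0.32), the adaptor gene lcp2a (1.1 ± 0.35) and ubash3bb (0.70 ± 0.22), and ptpn6 and lcp2a also serve myeloid cells. In mammals PTPN6 and UBASH3B dampen receptor signalling, whereas LCP2 carries it onward. The count of 7 stayed at 7 without age 2 replicate 1 and fell to 2 without age 2 replicate 2 or 3 or age 9 replicate 2 or 4, to 3 without age 9 replicate 3 and to 4 without age 2 replicate 4. The number of all genes called in either direction moved too, from 1157 to 7028 with a library left out, and was highest without age 2 replicate 1. Whether the shifts of the list and of all genes have a common source was not tested. At ages 4 and 7, 1 and 2 of the 14 were called higher than at age 2 (6.66% and 11.5% of all genes were). The list's medians there were already 0.68 and 0.70, against -0.05 and -0.08 over all genes. The log2 fold change was above 0 in 10 of the 14 at both ages. At age 9 against age 4 and against age 7, edgeR called 0 of the 14, as of all genes.

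The other lymphocyte lists were mixed, and their counts at age 9 stand against 6.82% of all genes higher and 11.5% lower. Of 8 T cell receptor and co-receptor genes tested, edgeR called 0 at age 9. At an unadjusted p under 0.05 there were 2 of the 8, and 5693 of all 15979 genes. Of 12 V(D)J recombination genes tested, rag2 alone was called at age 9. Of 16 B cell list genes tested, 3 were higher at age 9, with a list median of 0.23. These were pigr, an epithelial receptor that carries immunoglobulin (1.93 ± 0.32, adjusted p = 0.0032), and, named after their values were seen, the antigen presentation gene cd74b (1.16 ± 0.36) and swap70b (1.08 ± 0.35). In mammals all 3 are used by cells other than B cells. Among the age 2 libraries swap70b was highest in replicate 1, with 880 counts against 302 to 500 in the other 3. The count of 3 was 5 without age 2 replicate 1 and 1 without age 2 replicate 2 or 3 or age 9 replicate 2 or 4. With a library left out, 1157 to 7028 of all genes were called in either direction. The B cell factor pax5, with 2 transcripts, was too low to test and held 49, 14, 11 and 11 counts at ages 2, 4, 7 and 9. Among 11 T cell transcription factor genes tested, 2 were lower at age 9, foxp3b and the nuclear receptor gene rorc (-1.58 ± 0.37, adjusted p = 0.012). Of 12 T cell and killer cell effector genes tested, 1 was higher and 2 were lower at age 9. Among them the chemokine receptor gene ccr9b was lower at every later age, by 1.61 ± 0.42, 2.34 ± 0.43 and 1.99 ± 0.42 on the log2 scale at ages 4, 7 and 9. Its level in age 2 replicate 1 was 8.66 CPM, against 21.9 to 43.6 CPM in the other 3 age 2 libraries. At age 4 the rule for named genes also gave pigr (1.27 ± 0.32) and swap70b (1.35 ± 0.35), both higher, and the receptor gene cd226 (-1.04 ± 0.29). At age 7 it gave ccr9b, swap70b (1.7 ± 0.36), sh2d1ab (1.17 ± 0.29) and rorc (-1.43 ± 0.37).

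Among markers of other blood cells, macrophage and myeloid genes were often higher at age 9. Of 19 tested, 12 were higher and 1 lower than at age 2 (list median 1.48), where 6.82% of all genes were higher and 11.5% lower. Their summed level was 506 to 733 CPM at age 2 and 1431 to 2208 CPM at age 9, without overlap. At age 4 it was 763 to 1410 CPM, also without overlap with age 2, and 6 of the 19 were higher (6.66% of all genes). At age 7 it was 617 to 1168 CPM, which overlapped age 2, and 4 of these genes were higher (11.5% of all genes). Their defining genes marco, mpeg1.1, c1qa, c1qb, c1qc, csf3r and irf8 were above 0 in every library, whereas spi1b, with 2 transcripts, was at 0 in 4. Of 12 genes shared by leukocytes 2 were higher (list median 0.52), with a summed level of 296 to 335 CPM at age 2 and 346 to 512 CPM at age 9. Their sums at age 4 (361 to 476 CPM) and age 7 (360 to 401 CPM) also lay above all of age 2. Their defining genes ptprc, with 50 transcripts, and ikzf1, with 4, held 47 and 0 counts in all libraries together. Of 7 thrombocyte genes 2 were higher (summed level 32.2 to 90.8 CPM at age 2 and 72.2 to 156 CPM at age 9). Of 11 erythrocyte genes 1 was higher (list median 0.07), a share near that of all genes, and their summed levels overlapped (291 to 412 and 310 to 473 CPM), as did those of the thrombocyte genes. The part of any of these cells in the lymphocyte gene changes was not tested.

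**Figure D4:**
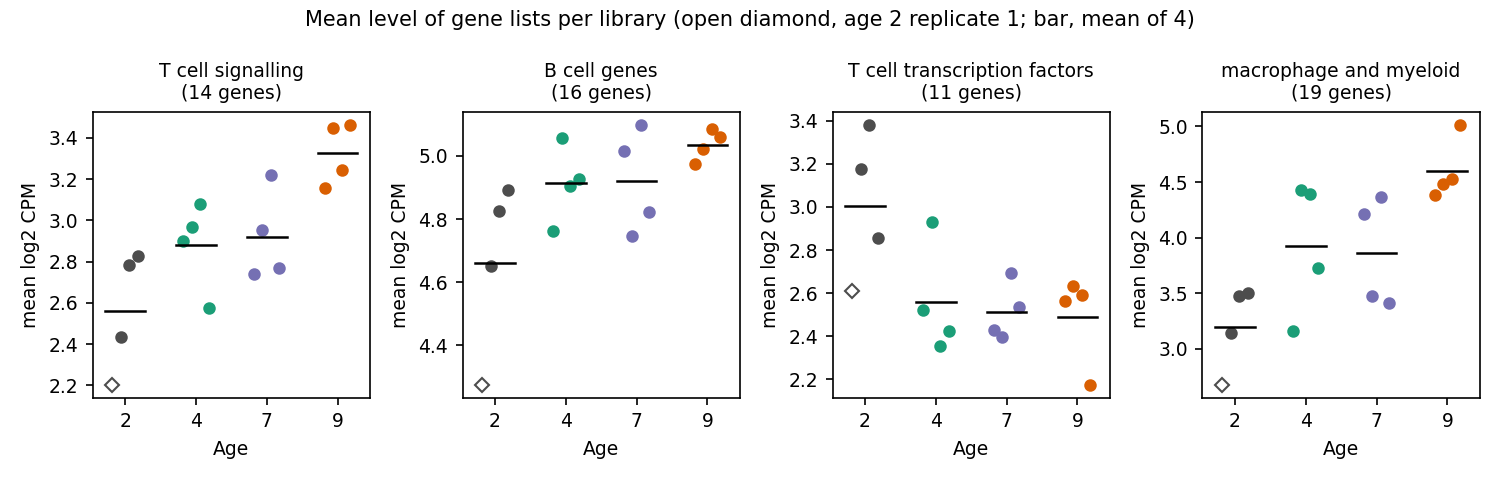
Mean log2 CPM of the T cell signalling, B cell, T cell transcription factor and macrophage lists in each library by age, with bars for the mean of 4 and an open diamond for age 2 replicate 1. The age 9 libraries lie above the age 2 libraries in the T cell signalling, B cell and macrophage panels, and age 2 replicate 1 is the lowest of all 16 in these 3.

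Among the older testes no member passed by edgeR. The comparisons of ages 7 and 4, 9 and 4, and 9 and 7 called 0 members each, where 0.0125%, 0% and 0% of all genes passed. At an unadjusted p under 0.05 there were 0, 1 and 2 members, and 623, 1505 and 1131 of all 15979 genes. DESeq2 also called 0 in each, and limma voom called 0, 1 and 1 (foxp3b in both). At age 9 against age 4, 2 members did not overlap (cd79a higher, foxp3b lower), where 8.54% of all genes did not overlap. At age 9 against age 7 this was so for btk, where 6.20% of all genes did not overlap, and at age 7 against age 4 for btk too (2.87% of all genes).

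Likeness between profiles was measured as the Euclidean distance of standardised log2 CPM over the 16 libraries, in which unrelated profiles lie about 5.48 apart. The closest members were rag2 and lck (2.82), followed by lat and lck (3.35), and cd79a was closest to btk (3.79). Over all genes with a symbol, the nearest to lat were si:dkey-260g12.1 (2.14), the macrophage receptor gene marco (2.19) and skap1 (2.19). The nearest to lck were itgb8 (1.48), triap1 and s1pr5b, and the nearest to rag2 were men1 (1.3), ran and rnaseh2a. The nearest to foxp3b were slc41a1 (2.43), nr4a2b and si:ch211-180a12.2. These distances describe 16 libraries that share their ages and carry no test.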

How the data were processed

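Per the submitters' processing notes, the tools included STAR 2.7.5 and HTSeq 0.11.1; the sources used here give no settings, strandedness or build. The authors deposited raw counts of fragments per transcript, 50072 transcripts a library. Summary lines (unassigned fragments), 65.2% to 76.2% of fragments and including 22.8% to 29.4% ambiguous ones, were left out. Counts were summed by symbol to 26356 genes, and 15979 were kept by filterByExpr (minimum count 10, total 15). Tests were by edgeR 4.0.16 (quasi-likelihood, robust, TMM) under R 4.3.3. Age was the only factor of a single fit to the 16 libraries (residual df 12), two-sided, with Benjamini-Hochberg adjustment over all genes at 0.05. Log2 CPM used a prior count of 2. The standard error given with an edgeR log2 fold change is its absolute value over the square root of the test's F statistic. The labels call replicates biological. No library was a duplicate (chi-square per degree of freedom of at least 10.1 within an age).

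The members and gene lists were chosen with earlier results of these data known. A gene of the set is not reported here and was left out of member and list counts, but not of the fit. All other members are named, with the 4 other called lymphocyte genes of smallest p per comparison, defining markers, and the 3 nearest profiles of each called member. The procedure was tested on simulated data. Alternatives used DESeq2 1.42.0 and limma 3.58.1. Values were summarised with python 3.11.15, pandas 2.3.3 and scipy 1.17.1. Gene neighbours came from a RefSeq table of Billie_1.0, which 48916 transcripts matched; it gives no sequence, and promoter motifs were not analysed here.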

Additional observations from a re-analysis of the deposited data

Results flagged for a closer look

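In 4 of 32 groups of 4 libraries (8 genes at 4 ages), 1 library lay apart from the other 3 by more than 0.829 of the group's range (Dixon's critical value). For normally distributed values chance gives this in about 1 of 20 groups. In age 2 replicate 1, rag2 was at 5.29 CPM, above the other 3 age 2 libraries (0.502 to 0.583), and cd79a was at 31.3 CPM, below the other 3 (109.1 to 121.5). In age 2 replicate 2, cd247 was at 77.7 CPM, above the other 3 (10.2 to 16.0). In age 9 replicate 2, foxp3b was at 0.733 CPM (4 counts), and the other 3 were at 0. With the other 3 at 0, any value above 0 would be flagged, so the chance rate does not apply to this group.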

How the results depend on the processing

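At age 9 against age 2 the 4 calls (lat, lck, rag2 and foxp3b) were 3 or 4 under DESeq2 size factors, upper quartile normalization, no filter, DESeq2, limma voom and the replicate block (lck was lost with upper quartile, no filter and the block), 0 on the 8 libraries of the 2 ages alone, where foxp3b was not tested, and 1 to 4 when a library was left out. At age 4 the 1 call became 3 with limma voom and 0 on the 2 ages alone (0 to 2 with a library left out). At age 7 the count of 0 became 1 with upper quartile normalization, 2 with DESeq2, 4 with limma voom and 1 with the replicate block (0 to 4 with a library left out). For any difference among ages, 1 became 0 without a filter or with the replicate block, 3 with DESeq2 and 5 with limma voom (0 to 3 with a library left out). Limma voom gave 1 at age 9 against 4 and 1 at age 9 against 7, both 0 in the edgeR fit; with a library left out the 3 older comparisons gave 0 to 1, and on ages 4, 7 and 9 alone, an alternative added after seeing the data, 0. Over all genes, the counts at ages 4, 7 and 9 against age 2 were 2979, 4368 and 2934. With limma voom they were 7875, 8597 and 7816, and on the 2 ages alone 0, 795 and 987. With a library left out they ran from 1 to 7581, 1945 to 7941 and 1157 to 7028, with the highest counts without age 2 replicate 1. For any difference 3086 became 5005 with DESeq2 and 8768 with limma voom (851 to 7616 with a library left out). The older comparisons, with 2, 0 and 0, became 14, 111 and 75 with DESeq2 and 0, 87 and 237 with limma voom. They were 3, 8 and 6 on the 2 ages alone and 0, 0 and 2 on the 3 older ages. The 7 against 4 count was 0 without a filter or with the block. The T cell signalling count of 7 became 4 without a filter or with the block and 2 on the 2 ages alone; the 5 without the members became 3, 3 and 2, and the B cell count of 3 became 5 with limma voom and 1 on the 2 ages alone. The cause of these shifts was not tested. No called fold change turned its direction under any alternative. Replicate numbers did not pair the libraries: same-numbered libraries of 2 ages had correlations of -0.220 to 0.412 (median 0.044) and others -0.361 to 0.376 (median -0.0082), so that the block is no paired analysis. In the smallest library 3 counts equal 0.584 CPM before TMM scaling. Counts near this floor limit foxp3b, rag2 in age 2 replicates 2 to 4 and lck in age 2 replicate 2.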
